A study of Ovis aries with 6 samples.

Results

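Wnt signalling genes were followed in 6 sheep libraries labelled hypothalamus. The set held the ligands (WNT and RSPO genes), the receptors (FZD, LRP5 and LRP6), the secreted inhibitors (SFRP, DKK and WIF1 genes) and the components inside the cell (DVL, AXIN, CTNNB1 and TCF/LEF genes). Members were chosen by gene symbol alone, which gave 54 of the 26067 features in the tables, and the symbol rule used no measured value. HP stands for 3 small-tailed Han sheep of high reproduction, and LP for 3 Wadi sheep of low reproduction. All 6 animals were healthy and alike in body composition by the submitters' account, and age, treatment and batch are not given in what was used here. RNA was sequenced as PCR-amplified full-length cDNA on a Nanopore instrument. Breed cannot be told apart from reproductive class in any comparison below.

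Wnt proteins are secreted lipid-modified ligands that bind a Frizzled receptor together with an LRP5 or LRP6 co-receptor. In the canonical pathway this recruits Dishevelled and Axin to the membrane, beta-catenin (CTNNB1) escapes destruction, and TCF/LEF factors switch on target genes. Secreted SFRP proteins and WIF1 bind the ligands, DKK proteins of the DKK1 type block LRP5 and LRP6, and R-spondins keep receptors at the cell surface. In mouse the pathway patterns the border of midbrain and hindbrain, takes part in forming the pituitary primordium, and acts on axons and synapses of cerebellar neurons.

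The libraries held 1981644 to 2732911 counts, and a library without a count of a gene allows up to 3, which stood for 1.10 to 1.51 CPM. CPM are counts per 1e+06 counts, of the library total for this floor and for markers and of the scaled library total for members. Hypothalamic markers were few. TRH, the thyrotropin-releasing hormone gene and the only tested marker of that list, was higher in HP, with 93.5 to 146 CPM there and no count in LP. Of 17 hypothalamic marker genes found, 7 had no count in any library (GNRH1, KISS1, NPVF, HCRT, NKX2-1, FEZF1 and RAX). In HP 12 of the 17 had no count, and in LP 9. OXT, AVP, NPY, GHRH and SIM1 had counts only in LP, at most 7 in a library, and TRH and CRH only in HP. All 12 tested anterior pituitary markers were higher in LP, with a summed level of 49.0 to 142 CPM in HP and 47211 to 300181 CPM in LP, and TSHB, POU1F1, PITX1, TBX19, LHX3 and SIX6 were among those with no count in HP. All 13 tested cerebellar markers were higher in HP, with a summed level of 4445 to 4938 CPM in HP and 21.9 to 125 CPM in LP, and EN1, EN2 and BARHL1 had no count in LP. The part of these marker differences in the Wnt results was not tested. Each LP library held the pituitary and each HP library the cerebellar markers, so the tissue captured, breed and reproductive class cannot be told apart, and in such bulk samples fewer cells of a type and less RNA per cell cannot be told apart.

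Frizzled receptors made up 4 of the 8 members that passed the test. HP libraries held mainly FZD3 and FZD4 counts, whereas LP libraries also held many counts of FZD5, FZD7 and FZD8. WIF1, a ligand-binding inhibitor, had counts only in LP, and DVL3 was higher in LP. WNT3, FZD3 and LRP6 were higher in HP, and CTNNB1 stood at nearly the same level in both groups. Of the 54 members, 19 had enough counts for a test, and 8 of these (42.1%) were called, with an adjusted p under 0.05 (edgeR, quasi-likelihood F test, adjusted over all tested genes after Benjamini and Hochberg). Among all 13078 genes tested the share was 51.2%, which is above the share among the members. Of the members 3 were higher in HP (27.1% of all tested genes were) and 5 higher in LP (24.1% of all tested genes were). The HP and LP values in CPM did not overlap in 10 of the 19 members, against 62.9% of all tested genes. In 5 of these HP lay above LP (33.9% of all tested genes) and in 5 LP lay above HP (29%). The median log2 fold change, HP minus LP, was -0.37 over tested members and 0.02 over all tested genes. The members' median moved to -1.17 when LP replicate 2 was left out and to 0.28 when LP replicate 3 was.

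The split moved with some settings. Without LP replicate 2, 12 of 24 tested members were higher in LP and 3 in HP. RSPO3, SFRP2, SFRP4, SFRP5, WNT2B, TCF7L2 and LRP5 were then added to those higher in LP. Over all genes 6742 of 13889 were called in that setting, 50.1% of these toward HP. Without HP replicate 1 or 2, 1 of 23 tested members was higher in HP and 5 in LP. Fewer genes were called over all genes as well, 5048 of 14199 and 4794 of 14057. Without genes above 1% of any library 2 members were higher in HP and 6 in LP, and by limma on the deposited TPM values 1 was higher in HP and 5 in LP.

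**Figure D1:**
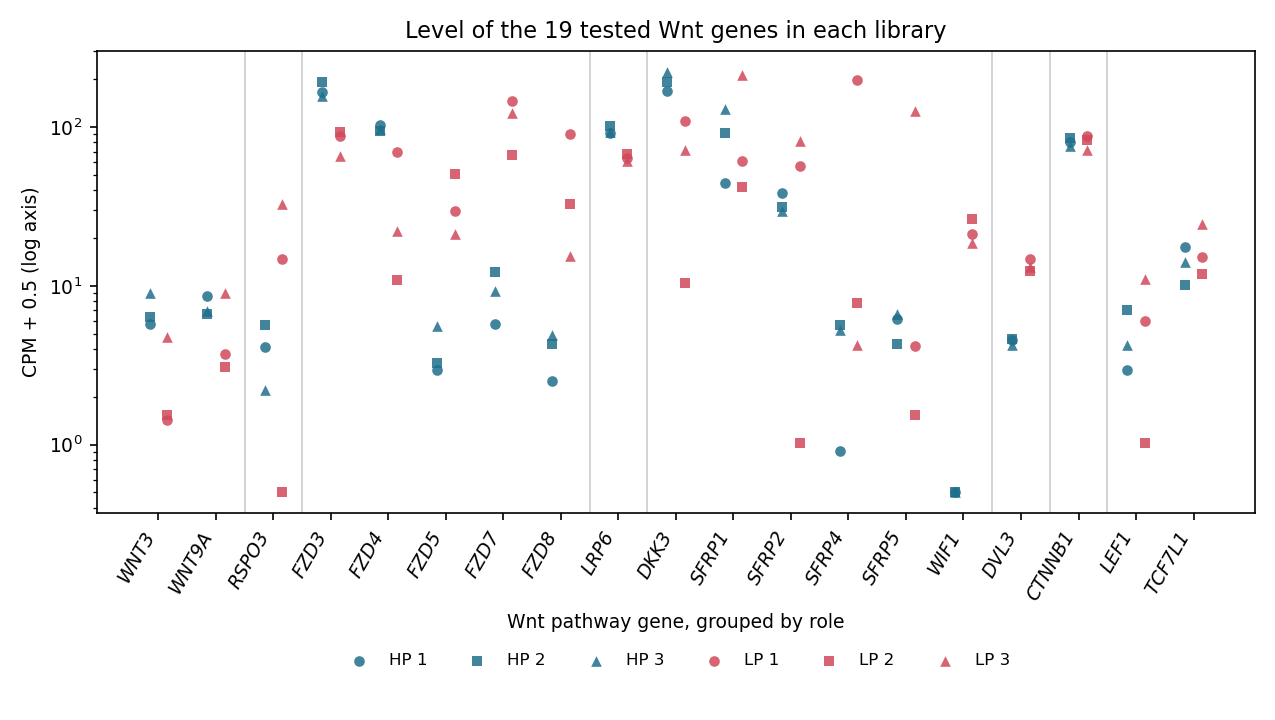
Each point is the level of a tested Wnt gene in 1 library, as CPM plus 0.5 on a log axis, with HP in blue and LP in red, marker shapes for replicates and grey lines between roles. In CPM, FZD5, FZD7, FZD8, WIF1 and DVL3 lie wholly higher in LP, whereas FZD3, FZD4, LRP6, DKK3 and WNT3 lie wholly higher in HP.

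The 10 Frizzled genes share, in the deposited Pfam annotation, the extracellular Fz domain that binds Wnt ligands. FZD7, a receptor known from stem cell and canonical Wnt signalling, had 13, 34 and 26 counts in HP replicates 1, 2 and 3 and 314, 127 and 230 in LP. Every LP library lay above every HP library. Mean levels were 8.59 ± 3.21 CPM for HP and 111 ± 40.5 CPM for LP (SD, n = 3 each), a 12.8-fold difference (log2 -3.67 ± 0.42 SE, edgeR adjusted p = 0.00102).

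FZD5, needed for eye and forebrain development in mouse, had 6, 8 and 15 counts in HP replicates against 63, 97 and 39 in LP replicates. Its groups did not overlap, and it was 9.53-fold higher in LP (edgeR adjusted p = 0.00193). FZD8, a close relative of FZD5, had HP counts of 5, 11 and 13 and LP counts of 195, 62 and 28. It was 13.1-fold higher in LP (edgeR adjusted p = 0.00515), and 6.72-fold without LP replicate 1, which held the most. The 3 LP libraries thus varied in FZD8 but all stood above HP.

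FZD3, which guides axons through the planar polarity pathway, went the other way. It had 409, 557 and 460 counts across HP against 189, 178 and 123 across LP, with no overlap, and was 2.10-fold higher in HP (log2 1.07 ± 0.22 SE, edgeR adjusted p = 0.00614). FZD4, the receptor of norrin in blood vessels, had 253, 274 and 284 counts in HP replicates against 150, 20 and 41 in LP replicates. The FZD4 groups did not overlap, but the spread within LP was wide, and the 2.88-fold difference was not called (edgeR adjusted p = 0.0698). Without LP replicate 1 it was 6.11-fold and called (edgeR adjusted p = 0.00433), and DESeq2 called it with all libraries (adjusted p = 0.0367).

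The other 5 Frizzled genes had at most 15 counts in any library and were not tested. FZD9 had HP counts of 5, 15 and 5 and LP counts of 0, 0 and 1, a ratio of pooled CPM of 18.0 (95% counting interval 2.94 to 738). FZD2 had 1, 2 and 1 counts across HP against 8, 1 and 13 across LP. FZD1 had 3, 6 and 10 and 13, 3 and 9. FZD6 had 3, 0 and 2 in HP, against 7, 5 and 4 in LP, and FZD10 at most 4 in any library. Among these low receptors FZD9 leaned to HP and FZD6 to LP without overlap, and the ranges of the other 3 overlapped.

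Shares within the Frizzled family do not depend on how libraries are scaled. FZD3 took 58.6% (95% Wilson interval 54.9 to 62.2), 61.1% (57.9 to 64.2) and 56.3% (52.9 to 59.7) of all Frizzled counts in the HP libraries. In LP its share was 20.1% (17.7 to 22.8), 36.0% (31.9 to 40.4) and 25.1% (21.5 to 29.1). Its share in each HP library was above that in each LP library, and it was the largest Frizzled share in the HP libraries and in LP replicate 2. Pairing of FZD3 with FZD4, chosen after the values were seen, gave 92.4% ± 2.14 (SD, n = 3) in HP and 36.5% ± 3.33 (SD, n = 3) in LP. FZD5, FZD7 and FZD8 together gave 5.29% ± 1.65 (SD, n = 3) in HP and 59.8% ± 1.62 (SD, n = 3) in LP. This set was also chosen after the values were seen. It holds the Frizzled genes called higher in LP, so its larger LP share follows from the choice.

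The sums of FZD5, FZD7 and FZD8 were 60.8%, 57.9% and 60.6% in the LP libraries, whereas FZD7 alone took 33.4%, 25.7% and 46.9%. In deposited TPM the LP shares varied more, with FZD5, FZD7 and FZD8 at 0.26% ± 0.20 for HP and 14.9% ± 7.26 for LP, and FZD3 with FZD4 at 99.6% ± 0.31 for HP and 83.7% ± 8.05 for LP (SD, n = 3 each). The family total itself overlapped between groups. It was 282, 313 and 277 CPM in HP and 433, 256 and 259 CPM in LP. With 3 samples against 3 an exact permutation test cannot go below p = 0.1, so no test of the shares is given. Counts are not divided by transcript length, and these shares compare libraries, not genes. In TPM a count of FZD3 weighed more than a count of FZD4, FZD5, FZD7 or FZD8, by the ratios given below.

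**Figure D2:**
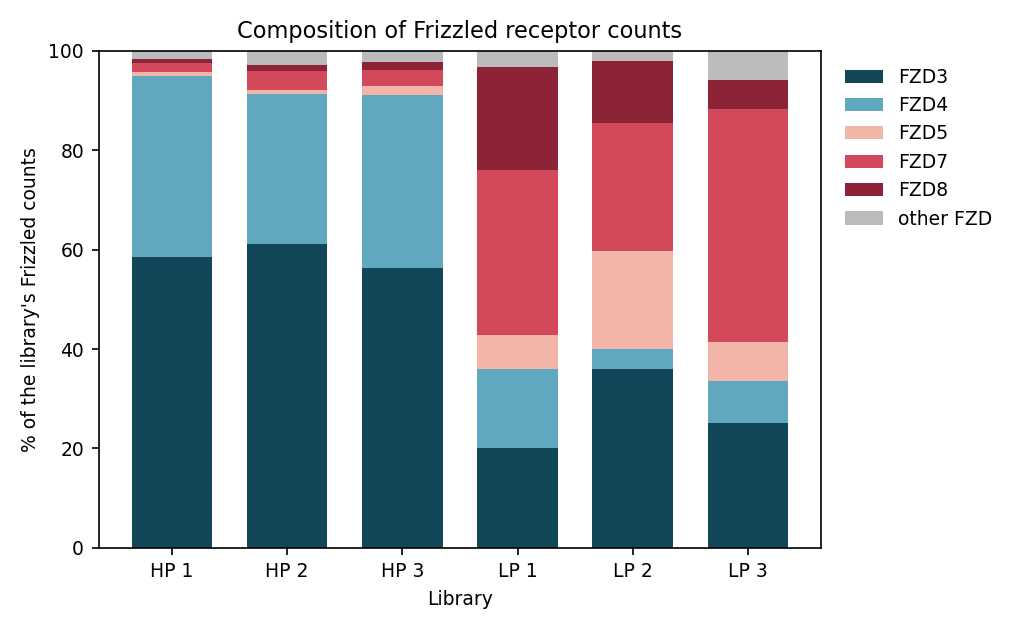
Each bar is 1 library, divided by the percent of its Frizzled counts that came from each gene, with FZD3 and FZD4 in blue, FZD5, FZD7 and FZD8 in red shades and the other FZD genes in grey. The blue part makes up 91.1% to 94.8% of the HP bars and 33.5% to 40.1% of the LP bars. The colour groups were chosen after the values were seen.

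Of the co-receptors, LRP6 had 226, 296 and 272 counts in HP replicates against 138, 129 and 114 in LP replicates. The groups did not overlap, and LRP6 was 1.50-fold higher in HP (log2 0.58 ± 0.18 SE, edgeR adjusted p = 0.0326). That call was lost without any 1 of the 6 libraries (edgeR adjusted p 0.0541 at the lowest, leaving out LP replicate 2, and 0.0916 at the highest, leaving out HP replicate 2), and by limma on log2(TPM + 1) (adjusted p = 0.0834). LRP5 was too low to test, with HP counts of 0, 1 and 1 and LP counts of 11, 2 and 9, a ratio of pooled CPM of 15.3 in favour of LP (95% counting interval 3.76 to 134). Both LRP genes encode receptors of the same type, and their values leaned in opposite directions.

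Wnt ligands were scarce in all libraries. All 19 WNT genes together had 66, 92 and 65 counts across HP against 42, 16 and 91 across LP, and between 8 and 11 of them were detected in a library. WNT4, WNT5B, WNT7B and WNT8B had no count at all, which leaves up to 1.10 to 1.51 CPM per library, on library totals. Only WNT3 and WNT9A had enough counts for a test.

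WNT3, known from Purkinje cells in mouse, had 13, 17 and 25 counts in HP replicates against 2, 2 and 8 in LP replicates. It was 3.18-fold higher in HP (log2 1.67 ± 0.58 SE, edgeR adjusted p = 0.0459), and the HP values lay above all LP values. LP replicate 3 held the highest LP count, and without it the difference was 6.30-fold. The call was lost without HP replicate 1, 2 or 3 (edgeR adjusted p = 0.0892, 0.102 and 0.136), without LP replicate 1 or 2 (0.133 and 0.112) and with DESeq2 (adjusted p = 0.0598), and by limma on log2(TPM + 1) the difference was not called either (adjusted p = 0.259). WNT9A had HP counts of 20, 18 and 19 and LP counts of 7, 5 and 16, with overlap, and was not called (edgeR adjusted p = 0.374).

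By the order of genes in RefSeq's ARS-UI_Ramb_v3.0 sheep annotation, taken for neighbours alone, WNT3A lies next to WNT9A and WNT9B next to WNT3. WNT3A had 17, 13 and 2 counts across HP against 0, 1 and 0 across LP, a ratio of pooled CPM of 23.0 (95% counting interval 3.84 to 937). HP replicate 3 stood near the LP libraries in WNT3A. WNT9B had 1, 1 and 0 counts in the HP libraries and no LP count, so the neighbours WNT3 and WNT9B were at unequal depth.

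Other ligands were also at low counts. WNT7A, which in mouse is released by cerebellar granule cells to remodel mossy fibres, had 7, 17 and 5 counts in HP replicates against 1, 2 and 5 in LP replicates. WNT2B had HP counts of 5, 11 and 4 and LP counts of 23, 2 and 24, and WNT16 had 1, 7 and 4 in HP, against 1, 0 and 35 in LP. In both genes LP replicate 2 was the lowest LP library, and for WNT16 LP replicate 3 alone stood apart. WNT5A, WNT10A, WNT10B, WNT11, WNT1, WNT2, WNT6 and WNT8A had at most 3 counts in any library.

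The R-spondins, agonists that act through LGR receptors, had few counts as well. RSPO3 had 9, 15 and 5 counts across HP against 31, 0 and 61 across LP and was not called (edgeR adjusted p = 0.149). LP replicates 1 and 3 were above every HP library and LP replicate 2 was at 0, and without that library RSPO3 was 6.59-fold higher in LP (edgeR adjusted p = 0.00746). RSPO2 had at most 6 counts in a library, and RSPO1 and RSPO4 at most 1.

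**Figure D3:**
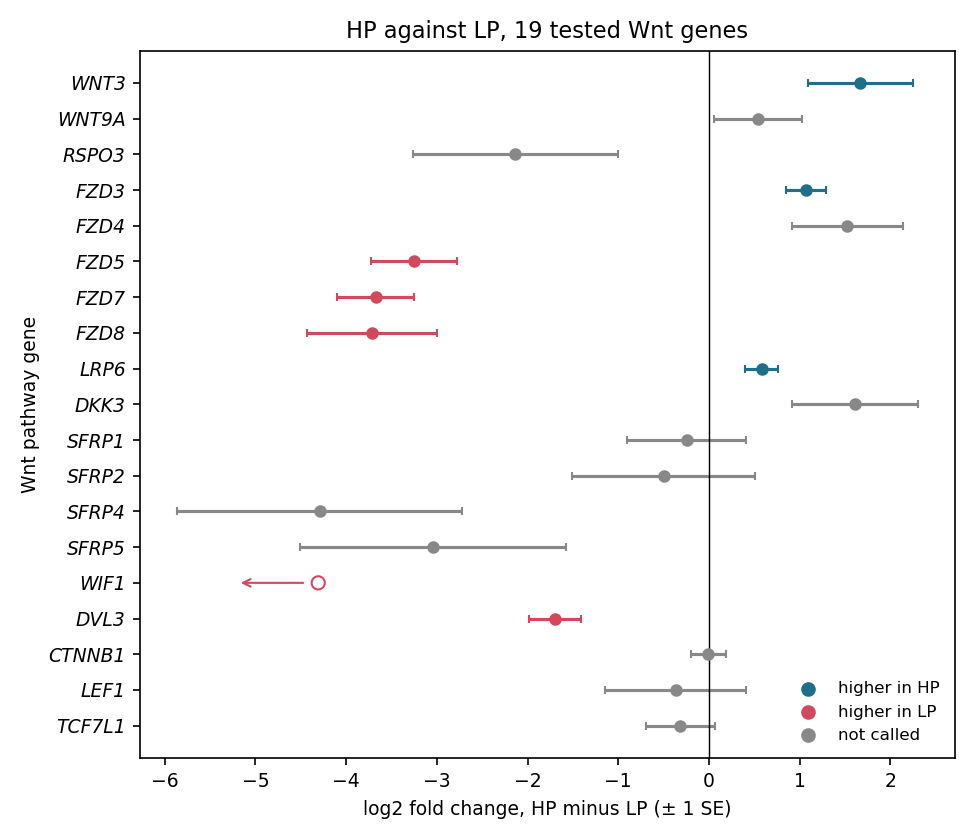
Points are log2 fold changes, HP minus LP, of the 19 tested Wnt genes with bars of 1 SE from edgeR's quasi-likelihood fit, in blue for genes higher in HP, red for genes higher in LP and grey for genes not called. WIF1, with no count in HP, is drawn as an open circle at its bound of at least 19.8-fold with an arrow, and SFRP4 and SFRP5 have the longest bars.

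The secreted inhibitors held 1 called gene. WIF1 had no count in HP and 45, 50 and 34 counts in LP, or 21.5 ± 4.02 CPM (SD, n = 3). It was at least 19.8-fold higher in LP, against a floor of 3 counts in each HP library on scaled totals (edgeR adjusted p = 8.65e-04). The 3 LP libraries varied less in WIF1 than in the other tested inhibitors, and the bound was at least 17.8-fold without LP replicate 2.

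The SFRP genes share the Fz domain with the Frizzled receptors in the deposited Pfam annotation, and with 8 further features of the tables, among them FRZB and SMO. SFRP4 had 1, 15 and 14 counts in HP replicates against 429, 14 and 7 in LP replicates. The excess came from LP replicate 1, and the 19.6-fold difference (edgeR adjusted p = 0.0535) was 1.55-fold without it. SFRP4 was called without LP replicate 2 (29.4-fold, edgeR adjusted p = 0.0270) and without LP replicate 3 (29.5-fold, edgeR adjusted p = 0.00923). DKK2 was highest in the same library, with 75, 1 and 5 LP counts against 0, 1 and 3 in HP.

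SFRP5 had HP counts of 14, 11 and 18 and LP counts of 8, 2 and 236, so that LP replicate 3 alone was high. Its 8.25-fold difference toward LP was not called (edgeR adjusted p = 0.118) and turned to 2.07-fold toward HP without LP replicate 3 (edgeR adjusted p = 0.168). Without LP replicate 2 it was 12.1-fold higher in LP and called (edgeR adjusted p = 0.0346). SFRP2 had 93, 90 and 85 counts across HP against 122, 1 and 153 across LP. LP replicate 2 was near 0, and without it SFRP2 was 2.13-fold higher in LP (edgeR adjusted p = 0.0139), whereas with all libraries it was not called (edgeR adjusted p = 0.698). SFRP1 had 108, 265 and 383 counts in HP replicates against 132, 80 and 401 in LP replicates, with wide overlap (edgeR adjusted p = 0.771).

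DKK3, a divergent member of the Dickkopf family, had HP counts of 414, 557 and 654 and LP counts of 237, 19 and 135. All HP values lay above all LP values, and the 3.04-fold difference was not called (edgeR adjusted p = 0.0894). DESeq2 called it (adjusted p = 0.0451), as did edgeR without LP replicate 2 (2.10-fold, adjusted p = 0.0217) and without LP replicate 1 (4.79-fold, adjusted p = 0.0458). DKK1, which binds LRP5 and LRP6, had 1 count in each HP library and 2, 7 and 5 in LP, a ratio of pooled CPM of 6.49 (95% counting interval 1.81 to 35.2). DKK4 had LP counts of 5, 8 and 0 and no HP count.

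Marker lists also varied between single libraries, in part along with these genes and in part not. The summed level of 10 fibroblast and mural cell markers was 148 to 326 CPM in HP and 5104, 236 and 1189 CPM in LP replicates 1, 2 and 3. LP replicate 1 held the most SFRP4 and DKK2, but LP replicate 3 had 7 SFRP4 counts against 14 in LP replicate 2. In LP replicate 1 ACTA2 gave 2506 and RGS5 1075 CPM of the sum. DCN and LUM were highest in LP replicate 3, at 481 and 71.7 CPM, against 380 and 65.7 CPM in LP replicate 1. The other markers of the list, the collagen genes among them, were highest in LP replicate 1. No marker of the list was at 0 in all libraries of a group, PDGFRA had no count in HP replicate 2 and PDGFRB none in LP replicate 2, and 4 of its 7 tested genes were higher in LP. The summed level of 8 choroid plexus markers was 44.2, 9.51 and 7411 CPM in LP, where replicate 3 held the most SFRP5. The transthyretin gene TTR gave 7312 CPM of the sum in LP replicate 3. HP replicate 3 had 4537 CPM of the same markers, of which TTR gave 4521 CPM, against 114 and 120 CPM in HP replicates 1 and 2. SFRP5 had 18 counts in HP replicate 3 against 14 and 11 in HP replicates 1 and 2. KCNJ13 stood at 6.43, 6.95 and 7.57 CPM in the HP libraries and at 40.4 CPM in LP replicate 3. Of this list AQP1 and SLC4A5 had no count in HP and SLC4A5 none in LP, and none of its 3 tested genes was called.

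Oligodendrocyte markers (6 of 10 analysed, with MAG at 0 in LP replicate 2) stood at 664 to 961 CPM in HP and at 72.2, 20.3 and 5994 CPM in LP, and astrocyte markers (9 of 10 analysed, with FGFR3 at 0 in LP replicates 1 and 2) at 6267 to 7965 CPM in HP and at 203, 178 and 10801 CPM in LP. Most of the astrocyte sum in HP and in LP replicate 3 came from S100B and ALDOC. S100B gave 3297 to 4492 CPM in HP and 9343 CPM in LP replicate 3, and ALDOC 2498 to 3182 and 772 CPM. LP replicate 2, the lowest in SFRP2, DKK3, FZD4 and RSPO3, had the highest summed pituitary markers. The part of these markers in the results was not tested. Across the 19 tested members, the highest library was a median 4.60 times the lowest within LP, with a library at 0 set to 3 counts. Within HP it was 1.62 times in the 18 members with counts there.

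**Figure D4:**
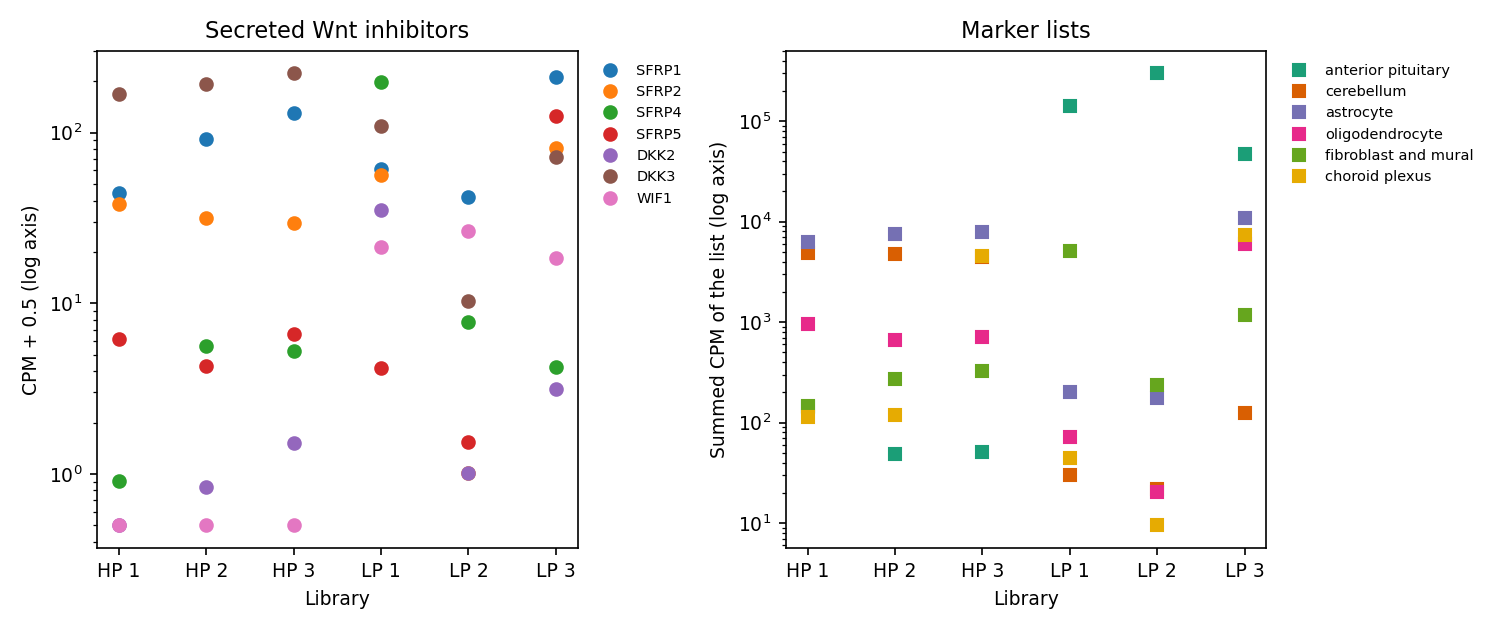
Left, the level of 7 secreted Wnt inhibitors in each library, as CPM plus 0.5 on a log axis, and right, the summed CPM of 6 marker lists, also on a log axis. SFRP4 and DKK2 are highest in LP replicate 1, as is the sum of fibroblast and mural markers. SFRP5 is highest in LP replicate 3, as are the sums of choroid plexus, oligodendrocyte and astrocyte markers.

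Inside the cell, DVL3, a Dishevelled adaptor that relays the Frizzled signal, had 10, 12 and 11 counts across HP against 31, 23 and 24 across LP. The libraries of a group were close to each other, the groups did not overlap, and DVL3 was 3.24-fold higher in LP (log2 -1.70 ± 0.29 SE, edgeR adjusted p = 0.00330). DVL1 and DVL2 had at most 2 counts in a library. AXIN1 and AXIN2, scaffolds of the beta-catenin destruction complex, had at most 1.

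CTNNB1 had 196, 246 and 223 counts in HP replicates against 190, 159 and 134 in LP replicates. Mean levels stood at 79.8 ± 4.39 CPM for HP and 80.3 ± 8.47 CPM for LP (SD, n = 3 each). The log2 difference was -0.01 ± 0.19 SE (edgeR adjusted p = 0.975). A normal approximation gave an interval of -0.38 to 0.37, which is narrower than a 95% interval with so few libraries. The sign of the difference turned with library totals alone (0.24) and without a filter on low counts (0.19).

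Of the factors that carry beta-catenin to DNA, TCF7L1 had HP counts of 42, 28 and 40 and LP counts of 32, 22 and 45. LEF1 had 6, 19 and 11 counts across HP against 12, 1 and 20 across LP. Both overlapped between groups and were not called (edgeR adjusted p = 0.506 and 0.711). TCF7L2, the factor that marks thalamic neurons in mouse, had 7, 4 and 8 counts in HP replicates against 25, 4 and 19 in LP replicates. It was not tested over all libraries, and without LP replicate 2 it was higher in LP (log2 -2.23, edgeR adjusted p = 0.00743). TCF7 had at most 2 counts in a library. TCF7L1 took 66.0% ± 10.7 (SD, n = 3) of TCF/LEF counts in HP and 59.1% ± 17.4 (SD, n = 3) in LP, a difference within the spread of the libraries.

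Other pathway genes were followed through lists of known components and the KEGG Wnt signalling term of the deposited annotation, with the 54 members left out. Of 173 such genes, 104 were tested, with 26 called toward HP and 23 toward LP, or 47.1% called against 51.2% of all tested genes. The median log2 fold change was 0.05. Library totals alone gave 32 and 13, and the deposited TPM with a pseudocount of 1 gave 16 and 33. Without HP replicate 1, 2 or 3 the number higher in LP was 14, 13 and 15. Fewer of all tested genes were called as well, 5048, 4794 and 5732 against 6693 with all libraries.

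Among 18 tested genes of the destruction complex and its kinases, 7 were higher in HP and 2 in LP, or 50.0% called against 51.2% of all tested genes. APC2, a neuronal relative of the APC scaffold, had HP counts of 38, 35 and 40 and LP counts of 1, 2 and 3 (12.9-fold, edgeR adjusted p = 0.00115). GSK3B, the kinase that marks beta-catenin for destruction, was 2.27-fold higher in HP (edgeR adjusted p = 0.00356), though not called by limma on log2(TPM + 1) (adjusted p = 0.0643). DIXDC1, a protein with the DIX domain of Dishevelled and Axin, was 3.62-fold higher (edgeR adjusted p = 0.00103). CSNK1G2, a casein kinase that phosphorylates LRP6, was 4.44-fold higher in LP (edgeR adjusted p = 0.00602).

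Among 8 tested nuclear cofactors, 3 were higher in HP and 1 in LP, again 50.0% called. PYGO1, a partner of the beta-catenin complex, and EP300, a histone acetyltransferase, were each 2.93-fold higher in HP (edgeR adjusted p = 0.00157 and 0.00179). CBY1, an antagonist that binds beta-catenin, had 6, 7 and 13 counts across HP against 42, 65 and 34 across LP, 7.52-fold higher in LP (edgeR adjusted p = 0.00188). CTBP2, a corepressor, was 2.13-fold higher in HP (edgeR adjusted p = 0.0386), a call lost with limma-voom (adjusted p = 0.0617). It was also lost without HP replicate 1 or 2 and without LP replicate 1, 2 or 3 (edgeR adjusted p 0.0539 at the lowest, leaving out LP replicate 3, and 0.111 at the highest, leaving out HP replicate 1).

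Of 10 tested planar polarity genes, 1 was higher in HP and 4 in LP, also 50.0% called, with a median log2 fold change of 0.07. RHOA, the small GTPase downstream of this branch, was 4.33-fold, PRICKLE2, a core polarity gene, 5.77-fold, INTU, a planar polarity effector gene, 4.68-fold and the kinase gene ROCK1 2.52-fold higher in LP (edgeR adjusted p = 7.87e-04, 0.00479, 0.00838 and 0.0125). The ROCK1 call was lost without HP replicate 1, 2 or 3 (edgeR adjusted p = 0.0526, 0.0633 and 0.0546). Among 6 tested genes of ligand secretion and the extracellular space, 1 was higher in HP and 2 in LP, again 50.0% called. The glypicans GPC3 and GPC4, heparan sulphate proteins that bind Wnt ligands, were 8.26-fold and 6.16-fold higher in LP (edgeR adjusted p = 0.00297 and 0.00228). PORCN, the acyltransferase that lipidates Wnt ligands, had 33, 13 and 19 counts in HP replicates against 1, 3 and 5 in LP replicates and was 5.14-fold higher in HP (edgeR adjusted p = 0.0216). The PORCN call was lost without HP replicate 1 (edgeR adjusted p = 0.0777) and without LP replicate 1 (0.0608), and limma on log2(TPM + 1) did not call it (adjusted p = 0.0559).

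Of 50 tested genes that only the KEGG term added, 13 were higher in each group, or 52.0% called against 51.2% of all tested genes. Those with the smallest p were genes of calcium signalling and adhesion, all higher in HP. PPP3CA, a calcineurin subunit, was 6.18-fold, PRKCB, a protein kinase C, 4.83-fold, PLCB4, a phospholipase, 3.33-fold and CTNND2, a neuronal catenin, 3.20-fold higher (edgeR adjusted p from 0.00103 to 0.00221). These 4 genes are known from neurons, and the summed level of 10 neuron markers (SYN1 at 0 in LP replicate 3, 8 of 9 tested higher in HP) was 5174 to 5701 CPM in HP and 347 to 730 CPM in LP. Its part in these results was not tested.

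Feedback targets of the canonical pathway were called in both directions. Of 14 such genes other than the members, 5 were tested, 1 was higher in HP and 1 in LP. RNF43, a ubiquitin ligase that removes Frizzled receptors, had HP counts of 56, 41 and 69 and LP counts of 3, 3 and 7 (8.97-fold, edgeR adjusted p = 0.00198). It was the only called gene of 9 tested for receptor turnover and co-receptors, or 11.1% against 51.2% of all tested genes. Its paralogue ZNRF3 had 37, 64 and 47 counts across HP against 25, 6 and 29 across LP and was not called (edgeR adjusted p = 0.218).

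CCND1, the cyclin D1 gene, had 136, 347 and 171 counts in HP replicates against 280, 280 and 387 in LP replicates and was 2.06-fold higher in LP (edgeR adjusted p = 0.0445). That call was lost with library totals alone (adjusted p = 0.107) and without any 1 library other than HP replicate 2 (edgeR adjusted p 0.0507 at the lowest, leaving out LP replicate 1, and 0.175 at the highest, leaving out HP replicate 1). SP5, a direct target of beta-catenin, had HP counts of 17, 27 and 17 and LP counts of 41, 64 and 13, and BAMBI, a BMP pseudoreceptor gene, 37, 55 and 60 and 159, 64 and 42 (edgeR adjusted p = 0.0649 and 0.0514). MYC had 2, 7 and 8 counts across HP against 68, 7 and 16 across LP, and NKD1, a Dishevelled antagonist, 4, 6 and 5 and 8, 0 and 5. LGR5 had at most 4 counts in a library and TNFRSF19 at most 10. APCDD1 and PRDM1 had at most 1, and NOTUM, SP8 and ASCL2 had none.

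The deposited TPM values ranked the groups differently for some genes. In FZD4, FZD5, FZD7 and FZD8 the ratio of CPM, here on library totals, to TPM followed 1 pattern over the libraries, with a highest over lowest value of 2.53 in each. In SFRP1 the ratio ran from 1.36 in HP replicate 1 to 8.24 in LP replicate 3, so that SFRP1 had 34.1, 45.0 and 83.0 TPM in HP and 23.8, 5.88 and 24.6 TPM in LP without overlap, while its CPM overlapped. By limma on log2(TPM + 1) the SFRP1 difference was 1.65, HP minus LP, and was not called (adjusted p = 0.0536). FZD4, DKK3 and WNT3, wholly higher in HP in CPM, overlapped between groups in TPM. LP replicate 1 had 3.58 TPM of FZD4, against 2.50 to 3.12 TPM in HP. In TPM too, FZD3 and LRP6 lay wholly higher in HP, and FZD5, FZD7, FZD8, WIF1 and DVL3 wholly higher in LP. FZD3 stood at 389, 369 and 184 TPM in HP and 78.9, 136 and 48.3 TPM in LP, and was the highest Frizzled gene in TPM in all 6 libraries. In TPM it took 98.6% ± 0.88 (SD, n = 3) of the family in HP and 81.9% ± 9.46 (SD, n = 3) in LP. Its ratio of CPM to TPM was 0.45 to 1.28, against 17.1 to 43.4 for FZD4 and at least 8.34 for FZD5, FZD7 and FZD8. A count of FZD3 thus weighed far more in TPM, and its rank and share in TPM depend on this weight. The LRP6 ratio was 0.18 to 0.28. FZD3 counts were in part not whole numbers in every library, as were those of LRP6 and CTNNB1. The lengths behind the deposited TPM are unknown here.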

How the data were processed

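Gene expression was measured in 6 samples, 3 per group. Per the labels' protocols, full-length cDNA was amplified by PCR and sequenced by Nanopore; per the submitters' processing notes, minimap2 2.17-r941 was used. Quantifier, genome build and annotation: not given in the sources used here. Estimated counts were deposited unscaled, with fractional values at 24.0% to 29.8% of all features, depending on the library. TPM, also deposited, add up to 1e+06 in each sample within rounding, and the lengths used are unknown. Table columns and sample titles share only their number, which gave the match.

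Estimated counts were rounded and tested over all genes in R 4.3.3 with edgeR 4.0.16 (filterByExpr, TMM, quasi-likelihood test, two-sided, Benjamini-Hochberg, threshold 0.05). The SE of a log2 fold change is its size over the root of the F statistic. CPM of genes use TMM-scaled totals and summed marker CPM use library totals. Alternatives were DESeq2 1.42.0, limma 3.58.1 (voom, and TPM with pseudocounts of 1 and 0.1), other scalings and filters, and leaving out each library. The fits were also run on simulated counts in which few genes differed between groups. In the data 51.2% of tested genes were called, a setting that the simulation does not cover. Whether PCR copies of a molecule were counted as separate reads is not given, so intervals (Wilson for shares) and floors hold for counting error alone. The p-values test the group difference against the spread between these samples. The rule named every member, up to 4 called genes with the smallest p per pathway list, and all feedback targets. The symbol rule for members used no values, but the gene family and the lists were picked with earlier results of these data known. Some marker genes are not reported here by name.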

Additional observations from a re-analysis of the deposited data

How the results depend on the processing

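The calls of FZD3, FZD5, FZD7, FZD8, WIF1 and DVL3 kept their direction and their side of the threshold under every alternative that tested them, with adjusted p of at most 0.0322. The number of members higher in HP, 3, was 5 with limma-voom and with no low-count filter, 1 with the stricter filter (30 counts in 3 libraries, 11 members tested), 1 with TPM at either pseudocount, and 1 to 3 without single libraries. The number higher in LP, 5, was 3 with the stricter filter and 5 to 12 without single libraries. In those settings 20 to 24 members were tested, and 4794 to 7913 of all tested genes were called. Other pathway genes higher in HP, 26, were 16 and 14 with TPM and pseudocounts of 1 and 0.1, and those higher in LP, 23, were 13 with library totals alone and 13 to 31 without single libraries. Library totals alone moved the median of all tested genes from 0.02 to 0.27, and TPM moved it to -0.31 and -0.40. The lead of HP in the FZD3 share, 31.6 percentage points, was 16.6 in TPM. The TCF7L1 share difference of 6.91 points ran from -0.09 to 16.7 without single libraries. Signs turned only in members that were not called in the main test: WNT9A (-0.038 and -0.048 with TPM), SFRP1 (1.65 and 1.73 with TPM, -0.62 to 0.75 without single libraries), SFRP2 (1.05 with limma-voom, 0.37 with TPM and a pseudocount of 0.1, -1.09 to 0.13), SFRP5 (-3.60 to 1.05), CTNNB1 (0.24 with library totals, 0.19 without a filter, -0.12 to 0.094), LEF1 (0.19 with limma-voom, 0.28 with TPM and 0.1, -0.91 to 0.42) and TCF7L1 (0.0081 and 0.0093 with TPM). The cause of these shifts was not tested. Without a filter on low counts FZD4, FZD9 and WNT3A were also called higher in HP and LRP5 and DKK2 higher in LP (adjusted p from 0.0243 to 0.0445), and WNT3 was not called (0.0527). No paired analysis was possible because the labels give no replicate numbers shared by the groups. Depth limits the ligands, most of which lie near the floor.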
